A study of Mus musculus with 27 samples.

Results

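The enzymes that make and break down the second messenger cyclic AMP, together with the adaptor protein Gipc1, were followed in myeloid cells of the inflamed colon that carried or lacked *Mbd2*. The 10 genes were the adenylyl cyclases *Adcy3*, *Adcy4*, *Adcy6*, *Adcy7* and *Adcy9*, the phosphodiesterases *Pde4a*, *Pde4b*, *Pde4d* and *Pde2a*, and *Gipc1*. They were chosen by name, as every probe whose symbol in the deposited array table equals one of these names, which gave 27 of 45281 probes and 10 of 30869 symbols. *Adcy4* and *Gipc1* entered the list because of their higher level in *Mbd2*-/- cDC1s, so values of that contrast are given below as a description, with no test.

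Monocytes, macrophages and cDC1s were sorted by flow cytometry from the colon lamina propria of *Mbd2*-/- mice and WT littermates housed together, and their RNA was hybridised to Illumina MouseWG-6 arrays. Both genotypes had received 2% dextran sodium sulfate (DSS) in drinking water for 6 days, which injures the gut epithelium and causes colitis. No colon cells of untreated mice were analysed here. Monocytes were gated as CD11b+ Ly6C+ cells, macrophages as CD11b+ Ly6C- MHC-II+ F4/80+ cells and cDC1s as CD11b- CD11c+ CD103+ dendritic cells, which the labels name CD11bnegDC. Mice were 8 to 22 weeks old, and *Mbd2* was missing from every cell of the knockout animals and not from the sorted cells alone. There were 5 arrays of each genotype for monocytes and for macrophages, and 2 WT and 3 *Mbd2*-/- arrays for cDC1s, 25 in all. Cells of 1 to 5 mice by the deposited record, or 1 to 10 by the study's methods, were pooled for each array.

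Adenylyl cyclases are membrane enzymes that convert ATP to cyclic AMP when receptors coupled to the stimulatory G protein are engaged, and most are restrained by inhibitory G proteins. Phosphodiesterases end the signal: the PDE4 family hydrolyses cyclic AMP with high selectivity, and PDE2A hydrolyses cyclic AMP and cyclic GMP. Cyclic AMP acts through protein kinase A and Epac, and in macrophages and dendritic cells a rise of it is known to lower the release of tumour necrosis factor and to raise that of interleukin-10. GIPC1 is a PDZ domain adaptor that links membrane receptors to the motor protein myosin VI and to the regulator RGS19. Mbd2 is a protein that binds methylated CpG sites and recruits a repressor complex.

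Because Mbd2 reads CpG sites, the 250 bases before the annotated start are shown for *Adcy4*, the cyclase that rose in *Mbd2*-/- monocytes and macrophages, and, to show how unlike the members are, for *Adcy9* and *Pde4d*, which are rich and poor in CpG sites. RefSeq sequences on assembly GRCm38.p6 were matched for 8 of the 10 genes, and several genes had more than 1 start. Each sequence runs 5′ to 3′ on the strand of its gene, and capitals mark CpG dinucleotides.
Adcy4, chr14:55784073-55784322, minus strand: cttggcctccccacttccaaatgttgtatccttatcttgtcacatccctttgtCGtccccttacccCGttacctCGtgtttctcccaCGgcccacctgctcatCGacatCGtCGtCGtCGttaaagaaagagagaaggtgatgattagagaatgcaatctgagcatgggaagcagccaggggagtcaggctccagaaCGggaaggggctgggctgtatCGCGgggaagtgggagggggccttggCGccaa
Adcy9, chr16:4420499-4420748, minus strand: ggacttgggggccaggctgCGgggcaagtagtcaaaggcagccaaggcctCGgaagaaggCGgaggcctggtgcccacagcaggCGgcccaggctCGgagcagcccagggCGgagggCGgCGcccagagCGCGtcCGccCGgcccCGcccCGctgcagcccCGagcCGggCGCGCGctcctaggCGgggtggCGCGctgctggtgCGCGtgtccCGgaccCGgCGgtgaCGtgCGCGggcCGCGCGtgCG
Pde4d, chr13:108653927-108654176, plus strand: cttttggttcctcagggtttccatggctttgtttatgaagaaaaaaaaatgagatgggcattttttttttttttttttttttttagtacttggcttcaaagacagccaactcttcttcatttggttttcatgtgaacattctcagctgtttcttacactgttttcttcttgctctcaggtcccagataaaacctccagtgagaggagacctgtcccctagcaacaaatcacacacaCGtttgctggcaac
The *Adcy4* sequence held 13 CpG sites, and 68.5% of the 32851 promoter sequences of this length held fewer, against a median of 6. The *Adcy9* sequence held 34, more than 96.5% of promoters, whereas the *Pde4d* sequence held 1, more than 7.87%. The cyclic AMP response element TGACGTCA, which reads the same on both strands and contains the CG counted above, was in none of the sequences matched to the 8 genes and in 1.55% of all promoters. Methylation was not measured here.

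Levels are log2 intensities after background correction and quantile normalization, so 1 unit is a doubling of brightness. A probe was called detected on an array at a detection p under 0.05, and a gene is described by its brightest probe unless another is named. Differences were tested with limma, and "rose" or "fell" is used for an adjusted p under 0.05. Mean array intensity ran from 172 to 353, and between 16024 and 18608 probes were detected. The probe of *Mbd2* was detected on 0 of the 25 arrays, so it could not check the genotype labels. The cDC1 markers followed the sort, since 8 of 9 measured were detected on every cDC1 array and their summed intensity was 13936 to 15758 there and at most 2653 elsewhere. Macrophage markers summed to 39603 to 46767 in macrophages, 16542 to 21073 in monocytes and 2365 to 5292 in cDC1s. The probe of the monocyte marker *Ccr2* was dim in every group, with means of 4.29 to 4.51. It was detected on no *Mbd2*-/- monocyte, WT macrophage or cDC1 array. The sum of the 6 measured monocyte markers was 15986 to 27662 in monocytes and at most 9751 elsewhere. *Mbd2*-/- cDC1 arrays were dimmer than WT cDC1 arrays, with mean intensities of 172 to 228 against 265 to 292.

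*Adcy4*, a cyclase that G protein beta-gamma subunits can stimulate, rose in *Mbd2*-/- monocytes and in *Mbd2*-/- macrophages. Array by array the level was 7.40, 7.60, 7.74, 8.50 and 7.69 on the WT monocyte arrays, and 8.74, 9.25, 8.90, 8.96 and 9.25 on the *Mbd2*-/- monocyte arrays. Every *Mbd2*-/- monocyte array lay above every WT one, and WT array 4 was the highest of its group. Means were 7.78 ± 0.42 in WT and 9.02 ± 0.22 in *Mbd2*-/- monocytes (SD, n = 5 each). The fitted log2 difference was 1.24 (SE 0.21, adjusted p = 0.00272), or 2.36-fold, and 37 of the 11978 genes tested had a larger one. *Adcy4* was the 1 member of 9 tested that rose, and 0 fell, where 0.835% of all genes tested rose and 1.03% fell. The median log2 difference of the 9 members was -0.18, beside -0.03 over all genes.

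In macrophages the level was 7.25, 7.70, 7.43, 8.28 and 7.06 in WT and 8.09, 8.76, 8.78, 8.25 and 8.45 in *Mbd2*-/-. The genotypes overlapped here, because WT array 14 was above 2 of the *Mbd2*-/- arrays. Means were 7.54 ± 0.48 and 8.47 ± 0.30 (SD, n = 5 each), and the log2 difference was 0.92 (SE 0.21, adjusted p = 0.0169), or 1.89-fold. Of the 10 members tested in macrophages, 1 rose and 0 fell, where 2.64% of all genes rose and 2.75% fell, and the median difference was 0.04 for members and -0.08 for all genes. In this cell type 319 of 12506 genes had a larger log2 difference than *Adcy4*. Genes that rose in both cell types numbered 37, *Adcy4* among them, which is 37% of the 100 that rose in monocytes and 11.2% of the 330 that rose in macrophages. The genotype effect on *Adcy4* differed by -0.31 between macrophages and monocytes, and this difference did not pass the test (SE 0.30, adjusted p = 0.869).

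**Figure D1:**
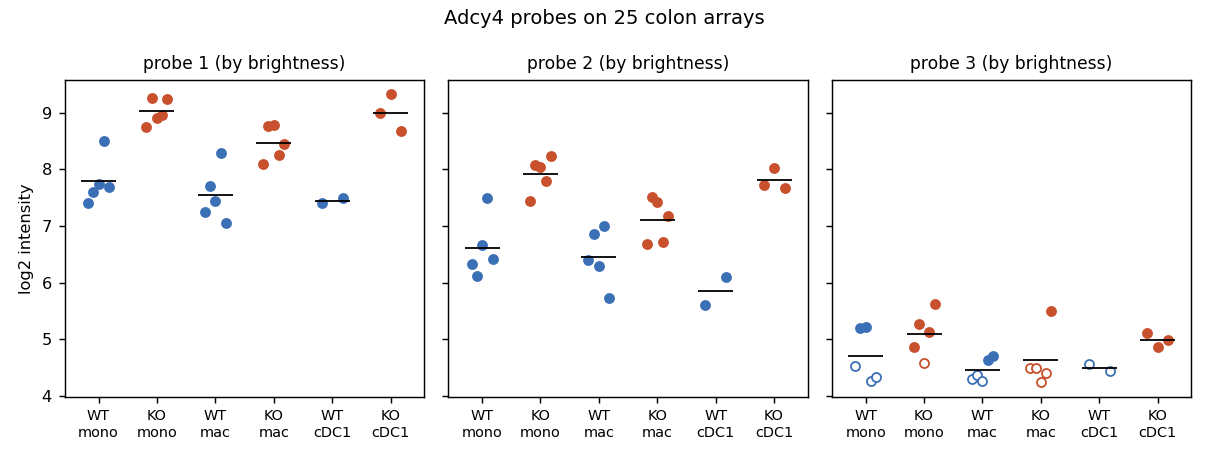
Log2 intensity of the 3 *Adcy4* probes (panels, brightest first) on each of 25 colon arrays, by genotype (WT blue, KO, meaning *Mbd2*-/-, red) and cell type (mono, monocytes; mac, macrophages). Points are arrays, open circles arrays with a detection p of 0.05 or above, and bars group means; on probe 1 the *Mbd2*-/- means of 9.02, 8.47 and 9.00 lie above the WT means of 7.78, 7.54 and 7.45.

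The second probe of *Adcy4* moved with the first over the 25 arrays (Pearson r = 0.958, a description over arrays that share cell type and genotype). In monocytes it read 6.32, 6.11, 6.67, 7.50 and 6.42 in WT and 7.44, 8.07, 8.03, 7.80 and 8.23 in *Mbd2*-/-. WT array 4 was again the highest WT array and here exceeded the lowest *Mbd2*-/- array, and the log2 difference was 1.31 (SE 0.25, adjusted p = 0.00573). In macrophages the second probe differed by 0.65 and did not pass (SE 0.25, adjusted p = 0.118). Its macrophage levels were 6.39, 6.85, 6.28, 7.00 and 5.73 in WT and 6.68, 7.50, 7.43, 6.71 and 7.17 in *Mbd2*-/-, which overlap. The third probe was dim, detected on 12 of 25 arrays, and did not pass in monocytes (log2 difference 0.39, adjusted p = 0.473).

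The calls for *Adcy4* depended on the scaling between arrays. When arrays were scaled to a common median instead, the log2 difference was 0.99 in monocytes (adjusted p = 0.113) and 0.86 in macrophages (adjusted p = 0.118), and neither passed. The median genotype difference of all genes in monocytes was -0.03 with quantile normalization and -0.25 with median scaling. Relative to the median of all genes the monocyte difference of *Adcy4* was 1.27 with quantile normalization, 1.23 with median scaling and 1.30 with cyclic loess. The macrophage call was also lost when macrophage arrays were normalized and fitted alone (adjusted p = 0.0986). Columns of the deposited table fall into sets of 6, the number of arrays on 1 chip of this type, and each set with monocytes or macrophages held both genotypes of them. Within such sets the *Adcy4* difference was 1.52 and 0.87 in monocytes and 0.89 and 0.87 in macrophages, and with the set as a block it was 1.20 (adjusted p = 0.0105) and 0.88 (adjusted p = 0.0339).

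Markers of other cells were present and moved in part with genotype. Epithelial markers, 10 of 10 measured, summed to 7535-17568 in WT and 8789-15916 in *Mbd2*-/- monocytes, where *Epcam* was detected on no array. In macrophages they summed to 6362-22105 in WT and 9835-19053 in *Mbd2*-/-, and in cDC1s to 5576-21174 and 7137-14636. The genotypes overlapped in each cell type. Fibroblast markers summed to at most 4316, on a WT cDC1 array. Of 8 neutrophil markers 7 were measured, and their summed intensity ranged over 2114-7378 in WT and 5968-8132 in *Mbd2*-/- monocytes. In macrophages the ranges were 451-1679 and 1240-5100, and the genotypes overlapped in both cell types. Of these markers *Ngp* was detected on no WT monocyte array. Endothelial markers also overlapped, at 522 to 901 and 644 to 1212 in monocytes and 635 to 1295 and 686 to 938 in macrophages. Plasma and B cell markers, 8 of 9 measured, did not overlap in monocytes, where the sum was 1269-1841 in WT and lower, 802-1267, in *Mbd2*-/-. In macrophages they spanned 1190-2049 and 798-1760 and overlapped, and *Ms4a1* was detected on no monocyte array. The part of these cells in the *Adcy4* difference was not tested. In bulk RNA of a sorted gate, more cells that express a gene and more RNA of it per cell cannot be told apart.

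In cDC1s, the contrast that put *Adcy4* on the list, its level was 7.40 and 7.49 in WT and 8.99, 9.33 and 8.68 in *Mbd2*-/-, a log2 difference of 1.56 (SE 0.31). With median scaling the difference was 1.12. Relative to the median of all genes it was 1.51 with quantile normalization and 1.30 with median scaling. The deposited intensities, before any correction, were 292 and 265 in WT and 456, 349 and 275 in *Mbd2*-/-, which overlap. The second probe gave 5.60 and 6.09 against 7.72, 8.03 and 7.68, and the third was detected on neither WT array and on 3 of 3 *Mbd2*-/- arrays, at least 1.33-fold higher. That bound sets the mean of the brighter group against the dimmest signal still detected on the other arrays. Of the 9 members tested in cDC1s, 2 were higher and 0 lower, beside 3.68% and 3.09% of all genes, and since this contrast chose members nothing is read from the count. The WT and the *Mbd2*-/- cDC1 arrays lie in different sets of columns, so genotype and column position cannot be told apart in cDC1s. Several marker sums also differed there without overlap: neutrophil markers spanned 483-546 in WT and 926-2452 in *Mbd2*-/-, macrophage markers 2365 to 2462 and 2755 to 5292, monocyte markers 6572 to 6772 and 7711 to 9751, and plasma and B cell markers 297-314 and 322-588. Single markers went both ways. Means of *S100a8* (8.31 and 9.66), *S100a9* (7.38 and 8.81) and *Ltf* (5.05 and 6.12) were higher in *Mbd2*-/-. Those of *Camp* (5.20 and 4.53) and *Mpo* (4.53 and 4.44) were lower, and *Ngp* and *Elane* were detected on no cDC1 array. *Mzb1* (7.57 and 8.22) and *Cd79b* (5.80 and 6.35) were higher, but *Pou2af1* (5.76 and 5.32) and *Tnfrsf17* (4.72 and 4.60) were lower. The part of such cells in the cDC1 values was not tested. A set of 67 probes that differed by genotype without overlap in both monocytes and macrophages, members left out, gave a signed mean log2 value of -0.58 and -0.48 on the WT cDC1 arrays and -0.20, -0.12 and -0.15 on the *Mbd2*-/- ones.

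*Gipc1* did not pass the test by genotype in monocytes or macrophages, and its fitted differences there had opposite signs. In monocytes it read 7.17, 7.47, 7.10, 6.94 and 7.98 in WT and 8.11, 7.95, 7.76, 7.24 and 7.78 in *Mbd2*-/-, with a log2 difference of 0.43 (SE 0.27, adjusted p = 0.506). In macrophages it read 7.92, 8.12, 8.09, 7.52 and 7.19 in WT and 6.58, 7.63, 7.04, 6.86 and 8.29 in *Mbd2*-/-, with a log2 difference of -0.49 (SE 0.27, adjusted p = 0.273). The genotypes overlapped in both cell types. The difference between these effects, -0.92, had an unadjusted p under 0.05 and did not pass after adjustment (SE 0.38, adjusted p = 0.679). Of the 9 members tested for such a difference 0 passed, where 2 of all 16347 probes passed. That of *Pde4b* was 0.72 (SE 0.31, adjusted p = 0.682).

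In cDC1s *Gipc1* read 7.39 and 7.50 in WT and 9.00, 8.91 and 9.46 in *Mbd2*-/-, and the 4 probes of the gene did not move together. The log2 difference was 1.68 (SE 0.38) on the brightest probe and 0.75 (SE 0.24) on the second, but -0.23 on the third and -0.15 on the fourth. With median scaling the difference on the brightest probe was 1.255. The second probe read 6.18 and 6.51 in WT and 7.13, 7.02 and 7.15 in *Mbd2*-/- cDC1s, and in monocytes and macrophages it differed by 0.07 (adjusted p = 0.907) and -0.30 (adjusted p = 0.285). Over the 25 arrays the correlation of the other probes with the brightest was 0.425, 0.386 and 0.472. The fourth probe was detected on 0 of 10 monocyte arrays and on 5 of 5 cDC1 arrays.

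**Figure D2:**
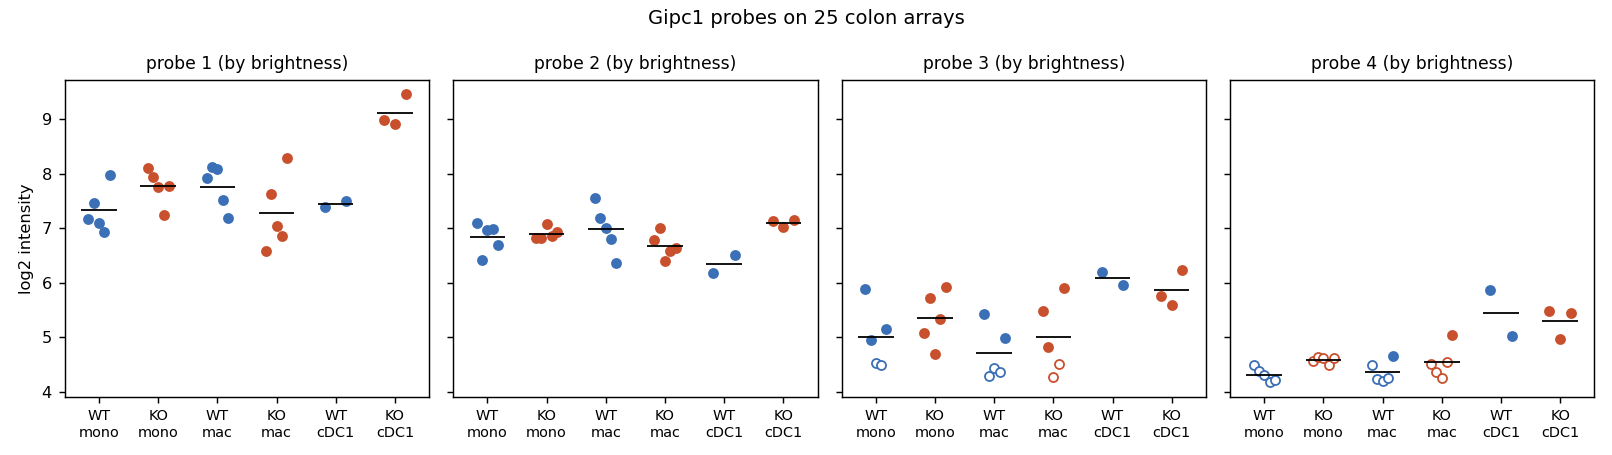
Log2 intensity of the *Gipc1* probes (panels, brightest first) on each of 25 colon arrays, by genotype (WT blue, KO, meaning *Mbd2*-/-, red) and cell type. Points are arrays, open circles arrays with a detection p of 0.05 or above, and bars group means; on the brightest probe the *Mbd2*-/- cDC1 arrays, at 8.91 to 9.46, are the highest of all 25.

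Across cell types, with both genotypes averaged, the brightest *Gipc1* probe was 0.73 higher in cDC1s than in monocytes and 0.76 higher than in macrophages, given as a description. These differences rested on the *Mbd2*-/- cDC1 arrays that the rule used, since the WT means were 7.44 ± 0.082 in cDC1s (SD, n = 2), 7.33 ± 0.41 in monocytes and 7.77 ± 0.40 in macrophages (SD, n = 5 each). With median scaling they were 0.24 and 0.20. The probes disagreed again, also as a description. The second differed by -0.15 and -0.11, the third by 0.80 and 1.12, and the fourth by 0.92 against both cell types. Since the fourth probe was detected on no monocyte array, it was at least 1.66-fold higher in cDC1s than in monocytes (measured means 5.37 and 4.45).

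Of the other cyclases and the phosphodiesterases, all but *Pde4a* differed between cell types on their brightest probe, and for *Adcy3* this is given as a description only. *Adcy3* was detected by that probe in macrophages alone. No genotype difference was detectable for any of them in monocytes or macrophages. None of the 8 passed the genotype test in monocytes or macrophages on any tested probe. On the brightest probes the monocyte differences ran from -0.39 for *Pde4b* to 0.12 for *Adcy6*. The macrophage differences there ran from -0.26 for *Adcy9* to 0.48 for *Pde4a*. Dimmer probes of *Adcy7* and *Pde4b*, numbered by brightness, differed from these values. In macrophages *Adcy7* was -0.11 on its brightest probe. It was 1.07 on probe 2 (adjusted p = 0.164) and 0.64 on probe 3 (adjusted p = 0.111). The value of probe 2 leaned on array 20, since the *Mbd2*-/- macrophage arrays read 5.66, 4.82, 4.72, 5.96 and, on array 20, 8.14. Probe 2 of *Pde4b* was 0.73 (adjusted p = 0.166). In monocytes *Adcy7* was -0.18 on its brightest probe and 0.31 on probe 2 (adjusted p = 0.826). Probe 3 of *Pde4b* was 0.04 there (adjusted p = 0.928). *Adcy3* was not tested in monocytes, because its brightest probe was detected on none of their arrays. For *Pde4b*, the brightest phosphodiesterase probe and in myeloid cells an enzyme whose induction is known to follow endotoxin, the differences were -0.39 (SE 0.22, adjusted p = 0.454) in monocytes and 0.33 (SE 0.22, adjusted p = 0.375) in macrophages.

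**Figure D3:**
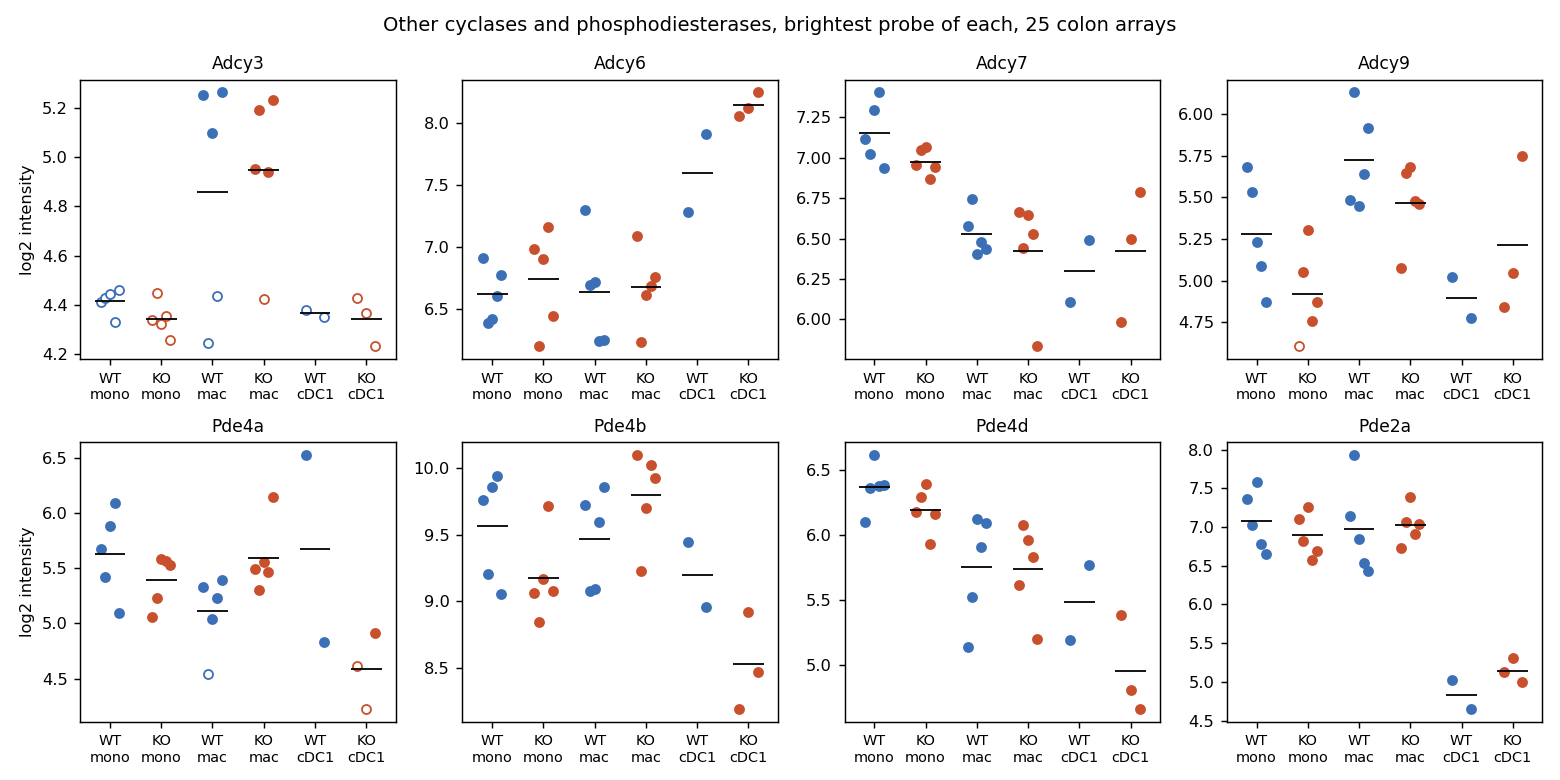
Log2 intensity of the brightest probe of the 8 other members (panels) on each of 25 colon arrays, by genotype (WT blue, KO, meaning *Mbd2*-/-, red) and cell type, each panel with its own axis. Points are arrays, open circles arrays with a detection p of 0.05 or above, and bars group means; all cDC1 arrays lie at 5.30 or below for *Pde2a*, under every monocyte and macrophage array.

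*Pde2a* was the member with the largest difference between cell types. Its level was 4.65 to 5.30 on cDC1 arrays (median 5.02, n = 5), 6.58 to 7.58 on monocyte arrays (median 6.92, n = 10) and 6.44 to 7.93 on macrophage arrays (median 6.98, n = 10). The cDC1 arrays overlapped neither of the other cell types, and the level in cDC1s fell by 2.01 on the log2 scale against macrophages (SE 0.20, adjusted p = 9.68e-09) and by 2.00 against monocytes (SE 0.20, adjusted p = 9.96e-09). Monocytes and macrophages differed by 0.02 (adjusted p = 0.954). *Pde4d*, an enzyme that beta-arrestin brings to activated adrenergic receptors, was also lowest in cDC1s. Its medians were 6.33 in monocytes, 5.87 in macrophages and 5.19 in cDC1s, and it fell by 0.53 from monocytes to macrophages (SE 0.14, adjusted p = 0.00319) and by 1.06 from monocytes to cDC1s (SE 0.17, adjusted p = 1.14e-05). With median scaling the difference between macrophages and monocytes was -0.45 and did not pass (adjusted p = 0.0607). From macrophages to cDC1s it fell by 0.53 (adjusted p = 0.0111), a call lost without WT cDC1 array 23 (adjusted p = 0.116).

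*Adcy6*, a cyclase inhibited by calcium, went the other way. It read 7.28 and 7.90 in WT and 8.05, 8.12 and 8.24 in *Mbd2*-/- cDC1s, against 6.20 to 7.16 in monocytes (median 6.69) and 6.24 to 7.30 in macrophages (median 6.69). It was 1.19 higher in cDC1s than in monocytes (SE 0.18, adjusted p = 5.89e-06), with no overlap, and 1.21 higher than in macrophages (SE 0.18, adjusted p = 5.05e-06), where 1 array overlapped. The size depended on the scaling. Relative to the median of all genes the differences were 1.21 and 1.24 with quantile normalization and 1.06 and 1.04 with median scaling. With median scaling that median was itself -0.34 and -0.37. The other 2 probes of *Adcy6* were detected on few arrays. *Adcy9*, the cyclase least sensitive to forskolin, was higher in macrophages, with a median of 5.56 against 5.07 in monocytes and 5.02 in cDC1s. The differences were 0.50 from monocytes (SE 0.13, adjusted p = 0.00434) and -0.54 from macrophages to cDC1s (SE 0.16, adjusted p = 0.00779), while cDC1s and monocytes differed by -0.05 (adjusted p = 0.840). *Adcy3*, the cyclase of olfactory neurons and cilia, was detected by its brightest probe on 3 of 5 WT and 4 of 5 *Mbd2*-/- macrophage arrays and on no other colon array. As a description, since the probe met the detection filter through macrophage arrays alone, it was at least 1.22-fold higher in macrophages than in cDC1s (measured means 4.90 and 4.35).

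Among the other members, *Adcy4* fell by 0.40 from monocytes to macrophages (adjusted p = 0.0407), with both genotypes averaged. That call was lost in 11 of 20 fits that left out 1 array, where the adjusted p ran from 0.00683 to 0.0876. With median scaling it was -0.38 and did not pass (adjusted p = 0.177). As a description, since it includes the arrays that the rule used, *Adcy4* in cDC1s differed by -0.18 from monocytes and by 0.22 from macrophages. With median scaling these differences were -0.72 and -0.34. *Pde4a*, another PDE4 enzyme, passed in no cell type comparison, with -0.16 from monocytes to macrophages (adjusted p = 0.515), -0.38 from monocytes to cDC1s (adjusted p = 0.152) and -0.22 from macrophages to cDC1s (adjusted p = 0.423). The WT cDC1 arrays of *Pde4a* read 6.52 and 4.83, and without array 23 the differences were -0.81 (adjusted p = 0.0028) and -0.64 (adjusted p = 0.0144).

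**Figure D4:**
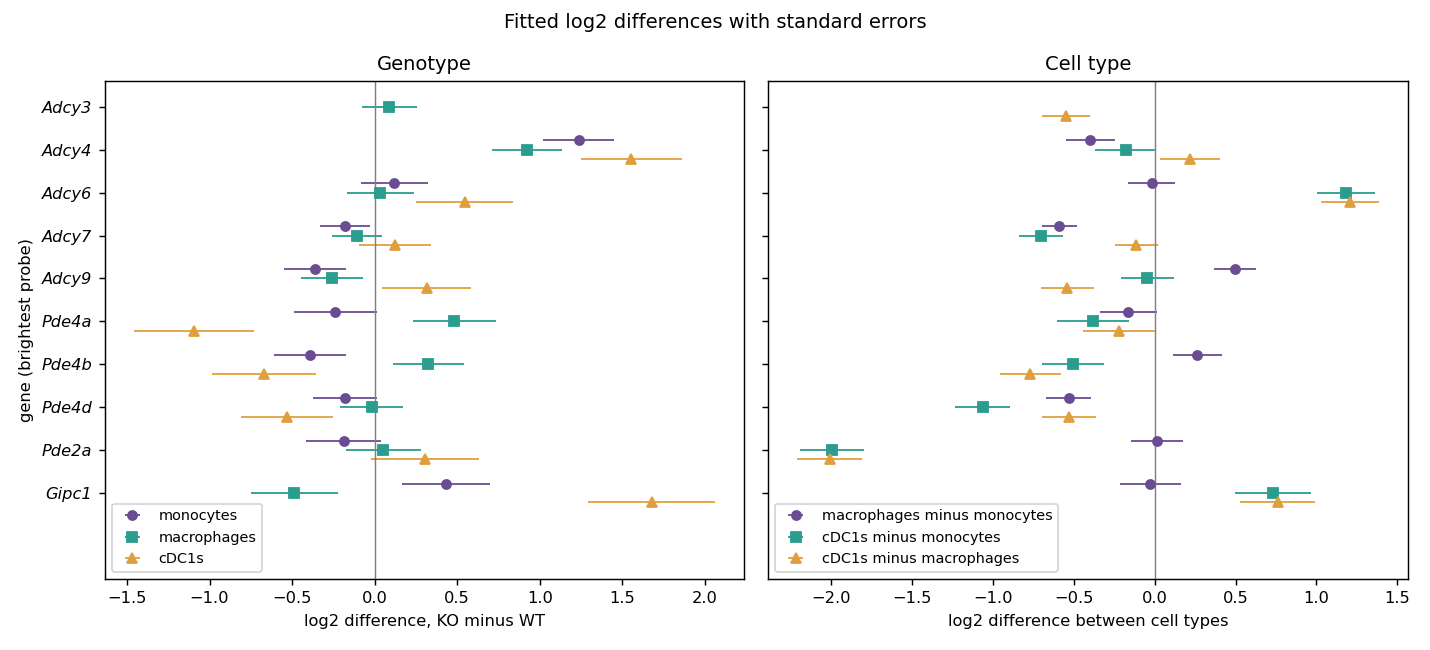
Fitted log2 differences of the brightest probe of each member, by genotype within a cell type (left, KO, meaning *Mbd2*-/-, minus WT) and between cell types with genotypes averaged (right), for the members tested. Error bars are standard errors of the fit; *Adcy4* and *Gipc1* in cDC1s, at 1.56 and 1.68, were chosen from that contrast, and *Pde2a* is lowest at right, at -2.01 and -2.00.

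By count, 1 of 9 members was higher and 3 were lower in macrophages than in monocytes, where 22.7% of all genes tested were higher and 17.3% lower. Against monocytes, 2 of 9 were higher and 4 lower in cDC1s, beside 27.3% and 26.6% of all genes. Against macrophages, 2 of 10 were higher and 5 lower in cDC1s, beside 26% and 27.1%. In both of these counts 1 of the 2 higher members was *Gipc1*, through the arrays that the rule used. Against macrophages 1 of the 5 lower members was *Adcy3*, through detection in macrophages alone. For these reasons nothing is read from either count. Monocytes and macrophages lie in different sets of columns, so cell type and column position cannot be told apart. T cell markers differed with cell type as well, with summed intensities of 794 to 3348 in cDC1s and at most 514 in monocytes and macrophages. The part of those cells in the cDC1 differences was not tested.

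Probes of *Adcy7* and of *Pde4b* disagreed between cell types. The brightest *Adcy7* probe, designed on a cDNA clone, read 6.87 to 7.40 in monocytes (median 7.04), 5.83 to 6.74 in macrophages (median 6.50) and 5.98 to 6.79 in cDC1s (median 6.49). From monocytes it fell by 0.59 in macrophages (SE 0.11, adjusted p = 0.000127) and fell by 0.70 in cDC1s (SE 0.13, adjusted p = 0.000106), with no overlap with monocytes. Adcy7 is a major cyclase of leukocytes. The second probe, designed on a RefSeq transcript, was 1.33 higher in cDC1s than in monocytes (adjusted p = 0.00793) and 1.16 higher than in macrophages (adjusted p = 0.0198). Its correlation with the brightest probe over 25 arrays was -0.630, and that of the third probe -0.602, so no direction is given for the gene.

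For *Pde4b*, the brightest probe, also designed on a cDNA clone, read 8.84 to 9.94 in monocytes (median 9.18), 9.08 to 10.1 in macrophages (median 9.71) and 8.19 to 9.44 in cDC1s (median 8.92). In cDC1s it fell by 0.77 against macrophages (adjusted p = 0.00165) and fell by 0.50 against monocytes (adjusted p = 0.0299), the latter lost without any of 5 arrays (adjusted p up to 0.177). The RefSeq probe differed by 0.29 (adjusted p = 0.403) and 0.01 (adjusted p = 0.984) in the same comparisons. On the third probe cDC1s differed by -0.37 from macrophages (adjusted p = 0.0131) and by -0.95 from monocytes (adjusted p = 4.22e-07), and macrophages by -0.58 from monocytes (adjusted p = 3.95e-05).

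**Figure D5:**
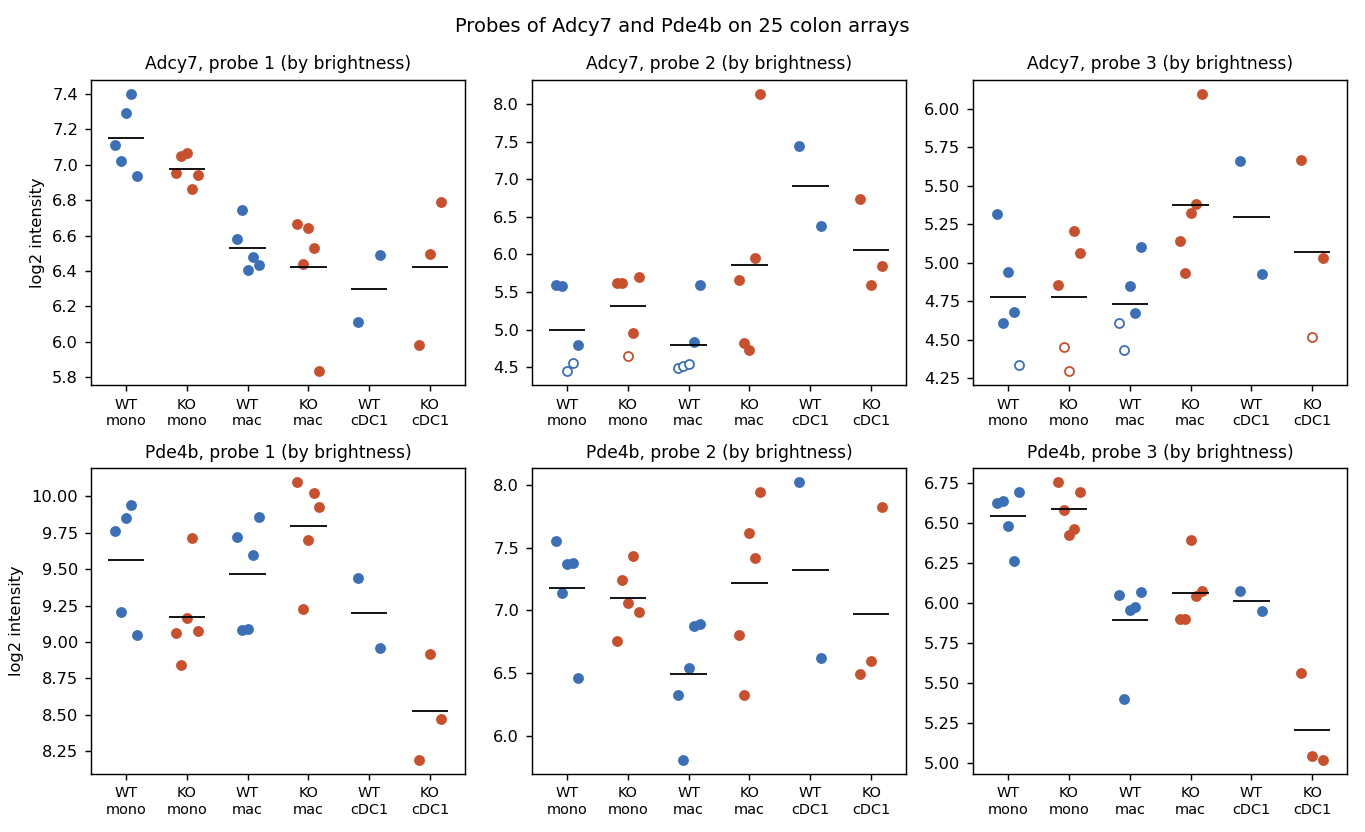
Log2 intensity of the 3 brightest probes (columns) of *Adcy7* and *Pde4b* (the upper and lower panels) on each of 25 colon arrays, by genotype (WT blue, KO, meaning *Mbd2*-/-, red) and cell type, each panel with its own axis. Points are arrays, open circles arrays with a detection p of 0.05 or above, and bars group means; *Adcy7* probe 1 is highest in monocytes, at 6.87 to 7.40, and probe 2 is highest in WT cDC1s, with a mean of 6.91.

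The rest of the cyclic AMP pathway was read from a list of 74 genes, of which 72 were on the array. By genotype, 0 rose and 3 fell of 40 tested in monocytes: *Crem*, a cyclic AMP response modulator (-0.70, adjusted p = 0.0366), *Prkar2b*, a regulatory subunit of protein kinase A (-0.66, adjusted p = 0.0169), and *Gnai2*, an inhibitory G protein subunit (-0.42, adjusted p = 0.0482). In macrophages 0 rose and 1 fell of 41, *Crem* again (-0.69, adjusted p = 0.0242). In cDC1s 0 rose and 5 fell of 42, and the largest differences were those of the anchoring proteins *Akap9* (-1.03, adjusted p = 0.00395) and *Akap11* (-0.77, adjusted p = 0.0254), the phosphodiesterase *Pde7a* (-0.74, adjusted p = 0.01) and the transcription factor *Creb1* (-0.63, adjusted p = 0.0334). Over all genes, 0.835% rose and 1.03% fell in monocytes, 2.64% and 2.75% in macrophages and 3.68% and 3.09% in cDC1s. The counts by genotype varied when 1 array was left out, from 0 to 4 in monocytes, 0 to 3 in macrophages and 2 to 8 in cDC1s.

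Between cell types 10 genes of the list rose and 9 fell of 42 tested from monocytes to macrophages, where 22.7% and 17.3% of all genes did so, with *Prkar1b* (1.05, adjusted p = 3.45e-07) and *Prkacb* (0.86, adjusted p = 7.8e-08) of protein kinase A and the GIPC1 partner *Nrp1* (0.93, adjusted p = 1.02e-07) among those that rose. The receptors *Adora2b* for adenosine (-1.52, adjusted p = 5.24e-08) and *Hrh2* for histamine (-1.29, adjusted p = 6.55e-08) fell, as did the cyclic AMP exporter *Abcc4* (-0.94, adjusted p = 2.25e-10). In cDC1s against monocytes 11 rose and 14 fell of 44, beside 27.3% and 26.6% of all genes. Against macrophages 11 rose and 13 fell of 45, beside 26% and 27.1%. These shares of the list were near those of all genes. *Gnas*, the stimulatory G protein subunit that activates the cyclases, was 2.13 and 2.32 higher in cDC1s. The phosphodiesterase *Pde1b*, which calcium and calmodulin activate, was 2.34 and 1.64 higher. The corresponding log2 differences of *Adora2b* were -4.50 and -2.98. All of these passed the test.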

How the data were processed

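RNA of sorted colon cells was amplified, labelled with Cy3 and read on Illumina MouseWG-6 arrays. The authors deposited bead intensities exported with GenomeStudio (GSGX 1.1.1), neither normalized nor corrected for background. Each deposited intensity carries an unadjusted detection p-value, set against 936 negative control probes. The submitters' processing notes name lumi and limma, with no versions; the background correction and normalization used there are not given in the sources used here. The deposited table holds 3 further signal columns of no sample, which were not used.

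Here normexp background correction from the detection p-values (offset 16), quantile normalization of 25 colon arrays and log2 were applied in R 4.3.3 with limma 3.58.1. A single linear model (lmFit, eBayes) covered 6 groups of genotype and cell type taken from the labels. Tests were two-sided, with Benjamini-Hochberg adjustment over all probes tested in a comparison. Probes detected (detection p under 0.05) on fewer arrays than the smaller side of a comparison holds were not tested. Each gene was read by its brightest probe, with every *Adcy4* and *Gipc1* probe and any other tested probe that differed in direction or call. From the pathway list, up to 4 passing genes per direction with the largest difference could be named.

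The members and gene lists were chosen with earlier results of these data known. The procedure was tested on simulated data, and no 2 arrays held identical values. The deposited record calls each array a replicate but gives no animal for it, so p-values measure the spread between arrays, whose number limits the precision. The study's methods name 3 separate experiments. The labels do not say which arrays share an experiment, so the fit treats arrays as independent. Promoters of *Adcy6* and *Gipc1* are not analysed here. Alternatives were no background correction, an offset of 50, a robust spread of the negative controls, cyclic loess, median scaling, other filters on dim probes, stricter thresholds, any probe of a gene, array weights, cell types fitted alone, a random block and each array left out in turn. The column sets of 6 as a block and control probes read directly were chosen after seeing the data.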

Additional observations from a re-analysis of the deposited data

Results flagged for a closer look

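On the brightest *Adcy7* probe, *Mbd2*-/- macrophage array 20 read 5.83 (log2 intensity), while the other 4 arrays of that group read 6.44 to 6.67. Its gap to the nearest array was 0.726 of the range of the group, above the limit of 0.71 for 5 arrays. It was the only array set apart in this way among 40 sets of a member and a group, of which chance sets apart about 1 in 20. The same array was the highest on the second *Adcy7* probe, at 8.14.

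Splenic CD4 T cells were taken 6 weeks after a transfer by their labels, which give no DSS for them. With 1 array of each genotype and no test, they were outside the comparisons above, and 8 of the 10 members were detected on both T cell arrays. *Adcy7* read 7.63 in WT and 7.14 in *Mbd2*-/- T cells, *Adcy3* 6.93 and 6.07, and *Gipc1* 6.53 and 6.59. *Adcy4*, at 4.43 and 4.39, and *Adcy9*, at 4.27 and 4.24, were not detected on either.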

How the results depend on the processing

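*Adcy4* kept its direction by genotype in monocytes and macrophages under every alternative run, and leaving out 1 array gave log2 differences of 1.14 to 1.41 in monocytes (adjusted p 0.000425 to 0.0122) and of no less than 0.80 in macrophages (adjusted p 0.00498 to 0.0425). The number of members that passed was 0 in monocytes with median scaling. In macrophages it was 0 with median scaling, with an adjusted p under 0.01, with a minimum absolute log2 difference of 1, and when the cell type was fitted alone. As a description, since that contrast chose members, it was in cDC1s 0 with median scaling, with array weights and when fitted alone, 1 with an adjusted p under 0.01, and 1 to 3 when 1 array was left out (1 without WT array 23 or *Mbd2*-/- array 30). Between macrophages and monocytes 2 members passed with median scaling and 0 with the minimum difference. With that minimum, 3 passed between cDC1s and monocytes and 2 between cDC1s and macrophages. The stricter thresholds pass fewer by construction, and for the others the cause was not tested.

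The median difference of all genes went from 0.05 with quantile normalization to -0.18 with median scaling by genotype in cDC1s, from -0.03 to -0.34 between cDC1s and monocytes and from -0.04 to -0.37 between cDC1s and macrophages. The share of higher genes among all calls then went from 49% to 77.6% in macrophages (59.6% with cyclic loess), 54.4% to 17% in cDC1s, 50.7% to 18.5% between cDC1s and monocytes and 49% to 14.8% between cDC1s and macrophages. Relative to that median, *Gipc1* was 0.58 and 0.57 higher in cDC1s than in monocytes and macrophages.

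With median scaling, calls were gained for *Pde4a* between cDC1s and monocytes (-0.52, adjusted p = 0.0490) and *Adcy7* between cDC1s and macrophages (-0.57, adjusted p = 0.0193). The call of *Pde4b* between cDC1s and monocytes was lost with no filter on dim probes (adjusted p = 0.0718) and with array weights (adjusted p = 0.0543). Apart from *Adcy7* by genotype in cDC1s, which had no test and was -0.34 with median scaling and -0.065 to 0.34 with 1 array left out, the signs that turned were those of differences that did not pass the test. With median scaling these were *Adcy6* (-0.13) in monocytes, *Pde4d* (0.076) in macrophages, *Adcy6* (0.059) and *Gipc1* (0.038) between macrophages and monocytes, *Adcy4* (-0.34) between cDC1s and macrophages, and *Adcy6* (0.18) in the difference of the genotype effects. With cyclic loess they were *Adcy7* (0.000495) and *Pde4d* (0.11) in macrophages and *Pde2a* (-0.0085) between macrophages and monocytes, the last -0.086 with array weights. Leaving out 1 array spanned zero by genotype in macrophages for *Adcy3* (-0.065 to 0.22), *Adcy6* (-0.068 to 0.20), *Adcy7* (-0.17 to 0.041), *Pde4d* (-0.17 to 0.12) and *Pde2a* (-0.082 to 0.29). It did so between macrophages and monocytes for *Adcy6* (-0.10 to 0.035), *Pde2a* (-0.10 to 0.083) and *Gipc1* (-0.15 to 0.060). Between cDC1s and monocytes it did for *Adcy9* (-0.18 to 0.048) and *Pde4a* (-0.81 to 0.042), between cDC1s and macrophages for *Pde4a* (-0.64 to 0.20), and in the difference of genotype effects for *Adcy6* (-0.22 to 0.079).

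No paired analysis was possible because no 2 groups share an array number in the labels. A random block of monocyte and macrophage arrays whose numbers differ by 10 had a correlation of 0.190 and changed no call of a member.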

Other observations

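The genes whose brightest probe followed *Adcy4* most closely over the 25 colon arrays, of 14388 compared, were *Ubd* (Pearson r = 0.880), *Wars* (0.798), *Parp3* (0.786), *Rab3ip* (0.775) and *Indo* (0.769), the last now named *Ido1*. *Ubd* encodes a ubiquitin-like protein, *Wars* the cytoplasmic tryptophanyl-tRNA synthetase and *Ido1* an enzyme that degrades tryptophan. For *Gipc1* they were *Sip1* (0.887), *Ctcfl* (0.881), *2810430B18Rik* (0.872), *Ppie* (0.834) and *Pih1d1* (0.814). These values describe arrays that share genotype, cell type and depth, and no test was made of them.

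Among members, *Gipc1* and *Pde4b* went in opposite directions over the arrays (r = -0.805), as did *Adcy6* and *Pde2a* (-0.741) and *Adcy6* and *Pde4d* (-0.728). *Pde4a* and *Pde4b* went together (0.660), as did *Adcy7* and *Pde4d* (0.615). Cell type is shared by the points of each of these correlations.

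The genes next to *Adcy4* on the chromosome were tested in the same comparisons. Of *Cideb*, *Ltb4r1*, *Ripk3* and *Nfatc4*, the leukotriene receptor gene *Ltb4r1* fell in *Mbd2*-/- macrophages (-0.94, adjusted p = 0.00134 by limma), and no other difference by genotype passed.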
